A study of Homo sapiens with 6 samples.

Results

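The insulin receptor substrates and the insulin-like growth factor (IGF) axis were described in AGS cells through 10 genes, of 58174 in the expression table. They are the substrates IRS1, IRS2 and IRS4, the receptors INSR, IGF1R and IGF2R, and the IGF binding proteins IGFBP2, IGFBP3, IGFBP4 and IGFBP6. The 10 genes were selected on the values of the 2 mean TPM columns compared here, so their levels and ratios are a description, with no test. AGS is a cell line from a human gastric adenocarcinoma, and the labels give stomach as the tissue. RNA was sequenced from 3 si-NC libraries, transfected with a negative control siRNA, and from 3 si-FTO libraries, transfected with an siRNA against FTO, an eraser of the RNA mark m6A. The genotype given is wild type in the si-NC labels and FTO-/- in those of si-FTO, whereas the titles carry the prefix si. The study's methods describe siRNA transfection and also stable lentiviral lines, and for the sequenced cells they name only FTO depletion. Group means cannot show which holds. The comparison asks how the transcriptome differs with FTO depleted.

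Insulin and the IGFs bind receptor tyrosine kinases at the cell surface, which then phosphorylate the insulin receptor substrates. The substrates are docking proteins that recruit PI 3-kinase, and AKT, mTOR and the FOXO transcription factors lie downstream. Outside the cell the IGF binding proteins hold the IGFs and set how much of them reaches the receptors, and in gastric as in other epithelial cancers the axis is known for signals of growth and survival.

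Each level is the authors' mean of a group in TPM, which divides reads by transcript length and scales each library to a fixed total, so levels may be set beside each other between genes. No value of a single library was used, TPM keeps no depth, and neither the error between libraries nor the depth behind a mean is known. A value of 0.0001 was read as 0, and such a gene is described as listed at 0. The log2 ratio is that of mean TPM + 1 in si-FTO over mean TPM + 1 in si-NC, a scale that understates the change of low genes. Comparison was restricted to the 20493 genes that reached 0.5 TPM in 1 group or both, and a gene counts as past 2-fold at a log2 ratio of 1 or more in size. Over all compared genes the median log2 ratio was -0.20, and the median without a pseudocount, on which median-ratio scaling rests, was -0.21. Ratios are therefore also given relative to that median of -0.20.

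FTO, the targeted transcript, averaged 33.1 TPM in si-NC against 7.27 TPM in si-FTO. The labels of the groups and the level of their target therefore point the same way.

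The cell type label was compared with marker genes. Of 12 epithelial markers, 6 reached 1 TPM in si-NC and 8 did in si-FTO, and their levels summed to 71.9 TPM and 5383 TPM. The most abundant was KRT18 in si-NC, at 52.1, and KRT8 in si-FTO, at 3139. KRT7 was listed at 0 in si-NC and had 253 in si-FTO. The defining epithelial adhesion gene EPCAM averaged 1.22 TPM in si-NC against 0.113 TPM in si-FTO, CDH1 (E-cadherin) 3.67 TPM against 0.685 TPM, and KRT19 was listed at 0 in si-NC and had 0.130 in si-FTO. ESRP1, an epithelial splicing regulator, was listed at 0 in si-FTO. Beside the keratins, ELF3, an epithelial transcription factor, averaged 0.115 TPM in si-NC against 93.3 TPM in si-FTO, and the claudin CLDN7 had 1.17 and 14.8. CLDN3, CLDN4 and ESRP2 were also past 2-fold higher. Of the 10 epithelial markers compared by the ratio defined above, 8 were past 2-fold higher in si-FTO, beside 11.4% of all compared genes, and 1 was lower, beside 17.0%, with a median log2 ratio of 2.92. So most of the list was higher in si-FTO, keratins and other genes alike. The adhesion genes went the other way: CDH1 had a log2 ratio of -1.47, and EPCAM, low in both groups, -0.99. KRT19 and ESRP1 were at or near 0 in both groups.

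Of 12 gastric and intestinal markers, 5 reached a mean TPM of 1 in si-NC against 2 in si-FTO, with sums of 90.3 and 34.1. The mucosal genes TFF1, TFF3 and GKN1 and the intestinal factor CDX1 were listed at 0 in both groups. The most abundant was GATA4 in si-NC, at 37.0, and MUC1 in si-FTO, at 31.0. GATA4, CDX2 and SOX2, transcription factors with 37.0, 18.1 and 13.2 in si-NC, were each listed at 0 in si-FTO, and GATA6 averaged 20.3 TPM in si-NC against 2.54 TPM in si-FTO. Gastric secretory markers other than MUC1 were thus at or near 0 in both groups, and 4 transcription factors of the list were higher in si-NC.

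Markers of cells outside the label were read in the same way. Of 6 neuronal markers, 4 reached a mean TPM of 1 in si-NC against 0 in si-FTO, with sums of 136 and 1.71. The most abundant was the neurofilament NEFL in si-NC, at 62.7 against a listed 0 in si-FTO, and MAP2 in si-FTO, at 0.819. NEFM was also listed at 0 in si-FTO, and STMN2 in both groups. Neuronal genes were thus a feature of the si-NC means. Of 8 fibroblast markers, 4 reached 1 in si-NC against 3 in si-FTO, with sums of 17.0 and 45.6, COL1A1 the most abundant in both, and COL1A2 and PDGFRA listed at 0 in si-FTO. Of the 5 endothelial markers found out of 6, 1 reached 1 in si-NC against 2 in si-FTO, with sums of 38.4 and 81.8. EGFL7 led them in si-NC and CDH5 in si-FTO, at 40.9 against 0.00827 in si-NC, and KDR was listed at 0 in si-FTO. The fibroblast and endothelial sums were therefore both higher in si-FTO, each led by 1 or 2 genes. Of 6 leukocyte markers, 2 reached 1 in si-NC against 1 in si-FTO, with sums of 4.78 and 7.44, CD68 leading in si-FTO, with CD3E listed at 0 in si-FTO and PTPRC and MS4A1 in both. Of 6 hepatocyte markers 0 reached 1 in either group, with sums of 0.275 and 0.0571, APOA1 leading in si-NC and ALB in si-FTO, and APOA1, SERPINA1, TTR and FGB listed at 0 in si-FTO. These marker levels differ between the same groups as the members, and their part in the members' values was not tested. Whether the libraries of both groups came from the same cell line was not tested either. With 1 mean per group, a difference between lines and a difference that came with the siRNA cannot be told apart in any ratio of si-FTO over si-NC given here. A change in the share of cells of a type and a change of RNA per cell cannot be told apart in these bulk samples.

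All 10 members passed the filter on low values, and 8 reached 1 TPM in both groups. By the ratio, 5 were past 2-fold higher in si-FTO, beside 11.4% of all compared genes, 2 were past 2-fold lower, beside 17.0%, and 3 lay under 2-fold. The genes higher were IRS2, IGF1R, IGFBP3, IGFBP4 and IGFBP6, the genes lower were IRS4 and IGFBP2, and IRS1, INSR and IGF2R lay under 2-fold. Because the members were chosen by these values, nothing is read from the counts. The median log2 ratio of the members was 0.96. For each of the 10 members the sign of the ratio was the same with a pseudocount of 0.1, after median-ratio scaling and after quantile normalization.

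**Figure D1:**
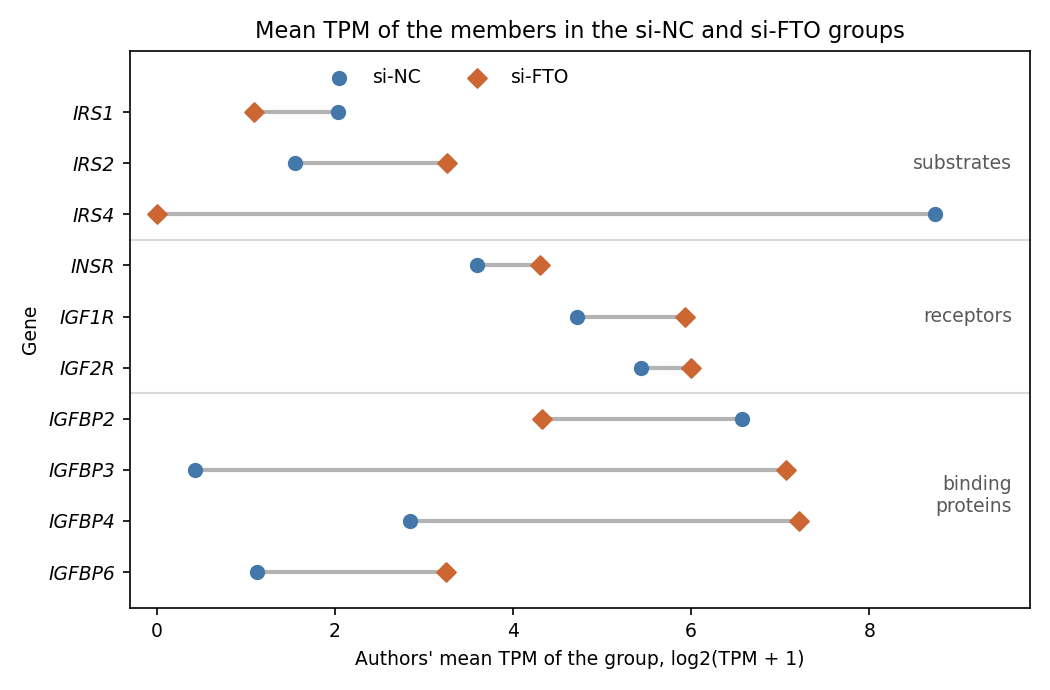
Mean TPM of the 10 members in si-NC (circles) and si-FTO (diamonds), on a log2(TPM + 1) axis, with 1 authors' mean per group and no error known. IRS4 runs from 427 TPM to listed at 0, whereas IGFBP3 and IGFBP4 run upward to 133 and 147 TPM, and INSR and IGF2R move least.

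The insulin receptor substrates differed in composition between the groups. IRS4, a substrate with a narrow tissue distribution that can signal to PI 3-kinase, averaged 427 TPM in si-NC but was listed at 0 in si-FTO, so no fold is given. In si-NC its level stood above that of 98.6% of compared genes. Its log2 ratio of -8.74, or -8.54 relative to the median, is set by the pseudocount, and it was number 2 from the lowest among the 20493. IRS2, the substrate known for insulin action in liver and in pancreatic beta cells, averaged 1.93 TPM in si-NC against 8.54 TPM in si-FTO. That is 4.42-fold higher on the linear scale, with a log2 ratio of 1.70, or 1.91 relative to the median. IRS1, the main substrate of muscle and fat and of the IGF1 receptor in many cells, averaged 3.09 TPM in si-NC against 1.13 TPM in si-FTO. Its level was 2.73-fold lower in si-FTO on the linear scale, with a log2 ratio of -0.94, or -0.74 relative to the median. IRS1 is low enough for the pseudocount to decide its side of the threshold: with a pseudocount of 0.1 the log2 ratio was -1.37, past 2-fold.

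Summed over the substrates, the level was 432 TPM in si-NC against 9.68 TPM in si-FTO, 44.6-fold lower. IRS4 made up 98.8% of the sum in si-NC and IRS2 88.3% in si-FTO. IRS1 contributed 0.716% and 11.7%. The ratio of IRS2 to IRS1 was 0.624 in si-NC against 7.54 in si-FTO. The summed substrate mRNA was thus high and almost wholly IRS4 in si-NC, and low and mostly IRS2 in si-FTO.

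The IRS4 value carries a limit from its locus. IRS4 lies on chromosome X from 107963176 to 107979793 on the minus strand (GRCh37). The annotated gene RP6-24A23.6 lies within it on the same strand, from 107965300 to 107975917; it averaged 160.0 TPM in si-NC but was listed at 0 in si-FTO. IRS4-AS1, on the opposite strand from 107979241 to 107982453, had 13.3 in si-NC and was listed at 0 in si-FTO. The library kit keeps strand, but whether the counting used it is not given in the sources used here, so reads of these 3 genes could have been shared among them. All 3 were listed at 0 in si-FTO, so a different split of reads would move the si-NC level of IRS4 and not its si-FTO level. Of all genes with at least the si-NC level of IRS4, 2 were listed at 0 in si-FTO, IRS4 included.

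The compared genes most like IRS4, by the Euclidean distance in log2(mean TPM + 1) over the 2 group means, were UCHL1, a gene without a symbol and CITED1. UCHL1, a neuronal ubiquitin hydrolase, averaged 303 TPM in si-NC against 0.0204 TPM in si-FTO, at a distance of 0.49. ENSG00000261409, which has no symbol in the tables used, had 263 in si-NC and was listed at 0 in si-FTO, at a distance of 0.70. CITED1, a transcriptional co-activator also on chromosome X, had 240 in si-NC against 1.06 in si-FTO, at a distance of 1.33. The measure picks genes by these 2 levels, so nothing further is read from their likeness to IRS4.

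The promoters of the substrates are shown because these related genes differ in direction. Each is the window of 250 bases before to 50 after an annotated start in the RefSeq table (GRCh38.p14), on the gene's strand. IRS1 is at chr2:226799771-226800070, minus strand; IRS2 is at chr13:109786534-109786833, minus strand; IRS4 is at chrX:108736328-108736627, minus strand. Capitals mark matches, on either strand, to 5 motifs: the E-box CACGTG, the insulin response element core TTGTTTTG (CAAAACAA on the other strand), the forkhead core GTAAACA, the TATA box TATAAA and the GC box GGGCGG.
IRS1: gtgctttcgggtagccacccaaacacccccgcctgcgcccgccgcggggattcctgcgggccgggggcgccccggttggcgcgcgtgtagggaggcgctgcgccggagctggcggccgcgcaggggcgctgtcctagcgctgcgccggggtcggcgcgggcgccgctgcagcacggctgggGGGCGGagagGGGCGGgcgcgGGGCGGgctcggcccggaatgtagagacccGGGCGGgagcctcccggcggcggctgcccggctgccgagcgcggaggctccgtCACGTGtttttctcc
IRS2: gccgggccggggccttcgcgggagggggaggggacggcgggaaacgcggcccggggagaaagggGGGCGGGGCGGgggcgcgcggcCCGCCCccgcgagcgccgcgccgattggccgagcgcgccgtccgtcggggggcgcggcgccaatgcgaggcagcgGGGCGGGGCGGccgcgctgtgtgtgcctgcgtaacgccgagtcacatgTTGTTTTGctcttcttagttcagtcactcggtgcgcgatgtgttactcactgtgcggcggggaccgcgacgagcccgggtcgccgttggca
IRS4: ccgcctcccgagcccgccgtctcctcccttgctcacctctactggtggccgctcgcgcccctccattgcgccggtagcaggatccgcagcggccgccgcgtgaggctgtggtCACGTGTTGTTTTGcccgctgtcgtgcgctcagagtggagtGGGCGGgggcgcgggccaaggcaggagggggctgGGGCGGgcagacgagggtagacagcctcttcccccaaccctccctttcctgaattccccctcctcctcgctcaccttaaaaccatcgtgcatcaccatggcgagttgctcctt

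TTGTTTTG, the core of an element bound by FOXO factors in insulin-repressed promoters, was found in 589 of 35116 promoters (1.68%). It begins 41 bases before the start of IRS2 and 132 bases before that of IRS4, and it was not found in the window of IRS1. CACGTG was found in 7.26% of all promoters. In IRS4 it stands directly before TTGTTTTG, from 138 bases before the start, and in IRS1 it begins at base 36 of the transcript. IRS4 has a second annotated start, whose window held neither of these words. GGGCGG, found in 45.0% of all promoters, was in 12 of the 13 windows of the members, all but the third of IGFBP2. So IRS2 and IRS4, which differ in direction, share a word held by few promoters, and a match of letters is not a binding site.

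The coding sequences of the GENCODE canonical transcripts were translated and aligned in pairs. IRS1 and IRS2 had 51.1% identical residues over aligned positions, whereas IRS4 had 35.9% with IRS1 and 35.9% with IRS2. The proteins have 1242, 1338 and 1256 residues for IRS1, IRS2 and IRS4, and each of the 3 canonical transcripts has 2 exons. IRS4 is therefore the most distant of the substrates in sequence.

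The receptors all had log2 ratios above 0, with IGF1R past 2-fold and INSR and IGF2R under it. IGF1R, the tyrosine kinase that binds IGF1 and IGF2, averaged 25.3 TPM in si-NC against 60.0 TPM in si-FTO. Its level was 2.38-fold higher on the linear scale, with a log2 ratio of 1.22, or 1.42 relative to the median. INSR, the insulin receptor, averaged 11.1 TPM in si-NC against 18.7 TPM in si-FTO, 1.69-fold higher, with a log2 ratio of 0.71, or 0.91 relative to the median. IGF2R, the cation-independent mannose 6-phosphate receptor, which removes IGF2 from the cell surface and sorts lysosomal enzymes, averaged 42.2 TPM in si-NC against 62.9 TPM in si-FTO. That is 1.49-fold higher, with a log2 ratio of 0.57, or 0.77 relative to the median. INSR and IGF2R stayed under 2-fold in each scaling tried, and IGF1R stayed above it.

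In both groups the order of the receptors was IGF2R, then IGF1R, then INSR, and with no error known it cannot be said which neighbours in this order differ. The levels of the 3 receptors summed to 78.5 TPM in si-NC against 142 TPM in si-FTO, 1.80-fold higher. The ratio of IGF1R to INSR was 2.28 in si-NC against 3.21 in si-FTO, and that of IGF1R to IGF2R was 0.599 and 0.954. In si-FTO the level of IGF1R was thus close to that of IGF2R. INSR and IGF1R are close relatives, with 59.3% identical residues in the translated canonical transcripts, and lie on chromosomes 19 and 15. Some annotated genes overlap the receptors. Within IGF1R, the lncRNA ENSG00000278022 on the same strand averaged 0.817 TPM in si-NC against 1.24 TPM in si-FTO. ENSG00000259621 and SYNM-AS1, on the opposite strand, had 0.878 and 0.580 in si-FTO, and MIR4714 was listed at 0 in both groups. Within IGF2R, the pseudogene CHP1P2 had 2.05 in si-NC against 1.87 in si-FTO, and the antisense RNA AIRN was listed at 0 in both groups. The lncRNA ENSG00000275741, which overlaps IRS2 on the opposite strand, was listed at 0 in si-NC and had 0.108 in si-FTO. These overlapping genes were low beside the members they overlap, unlike RP6-24A23.6 at IRS4.

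The IGF binding proteins differed in both directions. IGFBP3, the main carrier of IGFs in serum, averaged 0.353 TPM in si-NC against 133 TPM in si-FTO. On the linear scale it was 375-fold higher, against a low si-NC level, and its log2 ratio was 6.62, or 6.83 relative to the median. It ranked number 43 from the highest of the compared genes. IGFBP4, a binding protein that withholds IGFs until the protease PAPPA cleaves it, averaged 6.20 TPM in si-NC against 147 TPM in si-FTO. It was 23.7-fold higher, with a log2 ratio of 4.36, or 4.56 relative to the median, and ranked number 206. In si-FTO the levels of these genes stood above those of 94.3% and 95.0% of compared genes. IGFBP6, which binds IGF2 in preference to IGF1, averaged 1.18 TPM in si-NC against 8.48 TPM in si-FTO, 7.20-fold higher, with a log2 ratio of 2.12, or 2.32 relative to the median. IGFBP2, a binding protein abundant in fetal tissues and many tumours, went the other way, at 94.0 TPM in si-NC against 19.1 TPM in si-FTO. It was 4.93-fold lower on the linear scale, with a log2 ratio of -2.24, or -2.04 relative to the median.

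IGFBP1, IGFBP5 and IGFBP7 are the other IGFBP genes of the family list. IGFBP5, which binds IGFs and extracellular matrix, averaged 23.9 TPM in si-NC against 0.175 TPM in si-FTO (log2 ratio -4.41). IGFBP1, an insulin-repressed binding protein made in liver, was listed at 0 in si-NC and had 2.44 in si-FTO. IGFBP7, a relative with low affinity for IGFs, had 1.31 in si-NC against 6.57 in si-FTO (log2 ratio 1.71). Over IGFBP1 to IGFBP7 the levels summed to 127 TPM in si-NC against 316 TPM in si-FTO, 2.49-fold higher. IGFBP2 and IGFBP5 together made up 92.9% of the sum in si-NC and 6.08% in si-FTO. IGFBP3 and IGFBP4 together made up 5.16% and 88.4%. The ratio of IGFBP4 to IGFBP2 was 0.0660 in si-NC against 7.72 in si-FTO. The summed mRNA level of these genes was thus higher in si-FTO and came mostly from other genes, and protein was not measured in these libraries.

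**Figure D2:**
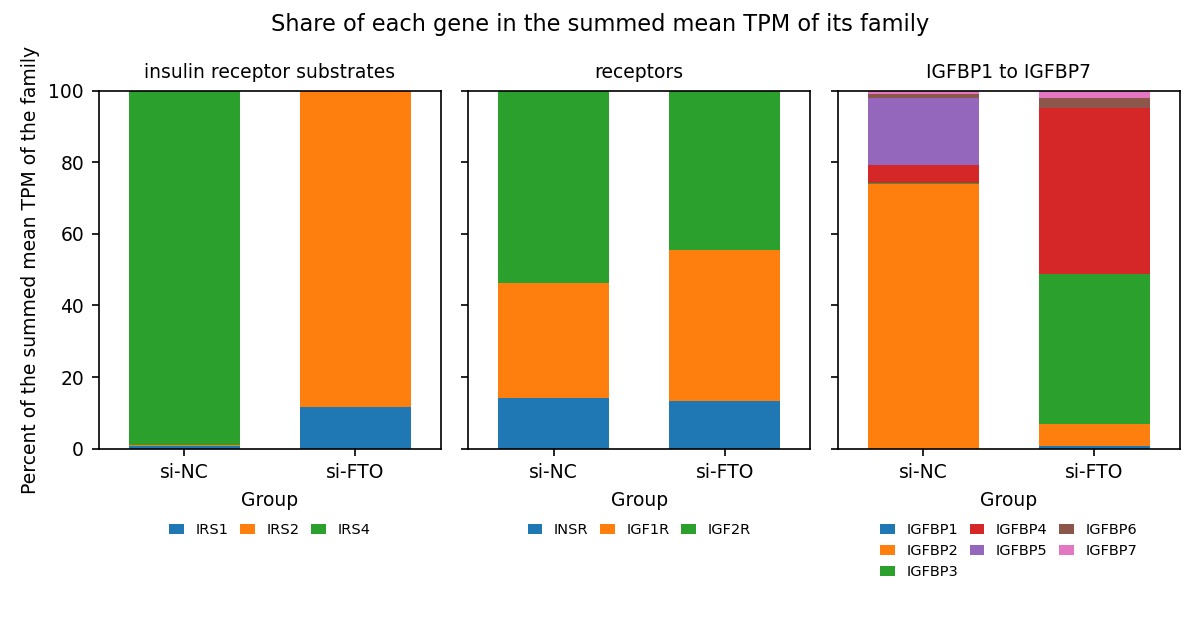
Share of each gene, in percent, in the summed mean TPM of its family in si-NC and si-FTO, for the substrates, the receptors and IGFBP1 to IGFBP7. The main gene changes from IRS4 (98.8%) to IRS2 (88.3%) among substrates and from IGFBP2 (74.0%) to IGFBP4 (46.5%) and IGFBP3 (41.9%) among binding proteins, whereas the receptors keep the same order.

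The promoters of IGFBP3, IGFBP4 and IGFBP6 are shown as those of the binding proteins among the members that were higher in si-FTO. They come from the same RefSeq table (GRCh38.p14), with capitals for the same 5 motifs. IGFBP3 is at chr7:45921223-45921522, minus strand; IGFBP4 is at chr17:40443200-40443499, plus strand; IGFBP6 is at chr12:53097417-53097716, plus strand.
IGFBP3: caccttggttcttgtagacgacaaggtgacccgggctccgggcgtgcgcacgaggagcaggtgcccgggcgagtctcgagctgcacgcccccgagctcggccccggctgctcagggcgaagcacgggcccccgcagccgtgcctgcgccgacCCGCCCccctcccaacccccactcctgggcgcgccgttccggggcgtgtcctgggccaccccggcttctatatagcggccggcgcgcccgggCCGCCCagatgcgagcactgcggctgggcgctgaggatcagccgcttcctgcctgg
IGFBP4: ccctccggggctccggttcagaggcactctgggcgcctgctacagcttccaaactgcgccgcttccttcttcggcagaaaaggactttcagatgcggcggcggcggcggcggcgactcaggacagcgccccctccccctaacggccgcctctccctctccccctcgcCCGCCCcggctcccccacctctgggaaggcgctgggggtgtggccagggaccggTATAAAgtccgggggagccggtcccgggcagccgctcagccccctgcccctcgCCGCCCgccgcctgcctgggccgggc
IGFBP6: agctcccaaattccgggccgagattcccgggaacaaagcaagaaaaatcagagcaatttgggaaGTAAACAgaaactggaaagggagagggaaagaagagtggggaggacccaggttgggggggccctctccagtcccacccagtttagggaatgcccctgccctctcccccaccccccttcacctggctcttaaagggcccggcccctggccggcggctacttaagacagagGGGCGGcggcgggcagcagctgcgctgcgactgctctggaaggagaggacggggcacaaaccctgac

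These 3 promoters shared GGGCGG and none of the other 4 motifs. TATAAA, in 11.5% of all promoters, begins 29 bases before the start of IGFBP4 and was in the window of no other member. GTAAACA, in 3.42% of all promoters, begins 186 bases before the start of IGFBP6 and was likewise in no other member's window. CACGTG was also found in IGF2R, 3 times. Percent GC was 74.7 for IGFBP3, 74.0 for IGFBP4 and 61.7 for IGFBP6, beside a median of 58.7 over all promoters. Of the 2 members past 2-fold lower, IRS4 had 67.3% and 68.3% in its 2 windows. IGFBP2 had 55.3%, 70.0% and 56.7% in its 3 windows, of which the first and the last lay below that median, and the windows of the other members lay above it.

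FTO removes m6A, which is found mostly in GGACT and related words, and m6A was not measured in these libraries. GGACT was counted in the canonical transcripts as a description of the sequence alone. It occurred 0.609 times per kb in IRS4, 0.383 in IGFBP3, 1.81 in IGFBP4 and 2.11 in IGFBP6, beside a median of 0.935 over 14022 compared protein-coding genes. IRS1 had 0.921, IRS2 0.858, INSR 0.74, IGF1R 0.736, IGF2R 0.925 and IGFBP2 0.707. The members higher in si-FTO therefore lay on both sides of the median. Over all 10 members, higher or not, the median was 0.799.

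**Figure D3:**
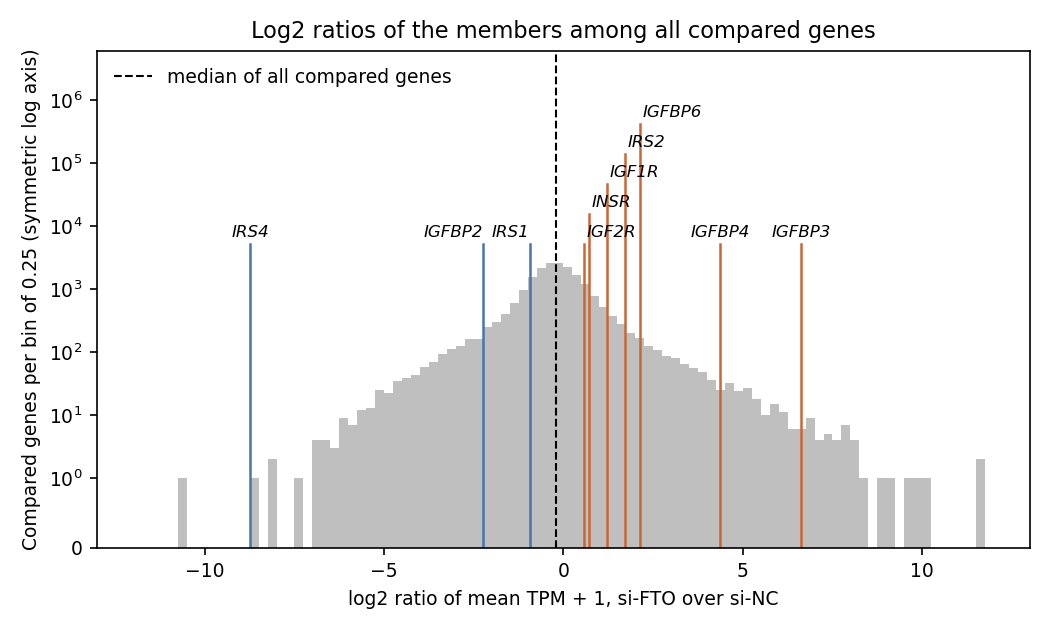
Number of compared genes by log2 ratio of mean TPM + 1, si-FTO over si-NC, in bins of 0.25 on a symmetric log axis, with the 10 members as vertical lines (line height only separates the names) and the median of all compared genes, -0.20, as a dashed line. IRS4, at -8.74, and IGFBP3, at 6.62, lie in the tails, and IRS1, IGF2R and INSR lie within 2-fold.

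The rest of the pathway was read from a list of 60 other genes, of which 53 were compared. Of these, 8 were past 2-fold higher and 11 past 2-fold lower, beside 11.4% and 17.0% of all compared genes, and their median log2 ratio was -0.23 against -0.20 for all. After median-ratio scaling the counts were 11 higher and 10 lower, so the balance of directions depends on the scaling. The ligands were nearly absent. INS and IGF1 were listed at 0 in both groups, and IGF2 averaged 0.469 TPM in si-NC against 0.0339 TPM in si-FTO, under the filter, so 0 of 3 ligands were compared. INSRR, an orphan relative of the receptors, had 0.0470 and 0.00686, and IGFALS, the acid-labile partner of IGFBP3 complexes, 0.0909 and 0.180. Of the 4 other binding protein genes 3 were compared, 2 higher and 1 lower, as given above. The members' receptors and binding proteins were thus present with hardly any ligand mRNA from the same cells.

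Among 5 binding protein proteases and stanniocalcins, 4 were compared, 2 higher and 1 lower, beside 11.4% and 17.0% of all compared genes. PAPPA, the protease of IGFBP4, averaged 0.0170 TPM in si-NC against 3.30 TPM in si-FTO (log2 ratio 2.08), in the same direction as IGFBP4. HTRA1, a secreted serine protease that cuts binding proteins, had 9.81 and 65.0, a log2 ratio of 2.61. STC1, an inhibitor of PAPPA, had 5.28 and 1.30, a log2 ratio of -1.45, and its relative STC2 had 46.2 and 23.8, a log2 ratio of -0.93. PAPPA2, a second pappalysin, had 0.0145 in si-NC and was listed at 0 in si-FTO. On these values both proteases compared were higher and both stanniocalcins lower in si-FTO, the second stanniocalcin by less than 2-fold.

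Of 12 other adaptors 11 were compared, 0 higher and 3 lower, beside 11.4% and 17.0% of all compared genes. Their median log2 ratio was -0.92. With so few genes these counts are near those shares, and nothing is read from them. GRB10 and GRB14 bind the insulin and IGF1 receptors and inhibit them. GRB10 averaged 49.6 TPM in si-NC against 10.9 TPM in si-FTO (log2 ratio -2.09), and GRB14 had 9.66 and 2.12, a log2 ratio of -1.77. DOK1, a docking protein that restrains RAS, had 19.6 and 9.12, a log2 ratio of -1.02, which was under 2-fold after median-ratio scaling (-0.83) and after quantile normalization (-0.91). SHC1, the adaptor that leads from the receptors to RAS, had 40.6 and 80.0, a log2 ratio of 0.96, and 1.17 after median-ratio scaling. Its partner GRB2 had 28.1 and 44.1, a log2 ratio of 0.63. Of this list GRB10, GRB14 and DOK1 were thus the genes past 2-fold, and the other 8 compared lay under it.

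Of 8 phosphatases and SOCS genes, all compared, 2 were higher and 1 lower, beside 11.4% and 17.0% of all compared genes. Their median log2 ratio was -0.23. SOCS3, an inhibitor of cytokine and insulin receptors that promotes the breakdown of IRS proteins, averaged 1.08 TPM in si-NC against 112 TPM in si-FTO (log2 ratio 5.76). PHLPP1, a phosphatase of AKT, had 15.0 and 5.56, a log2 ratio of -1.29. INPPL1 (SHIP2), the most abundant of the list, had 116 and 209, a log2 ratio of 0.84, and 1.05 after median-ratio scaling. PTPN11 (SHP2) had 86.0 and 73.2, a log2 ratio of -0.23, close to the median of all genes. On the log2 scale SOCS3 was, after IRS4 and IGFBP3, the gene with the widest difference among the members and the pathway list.

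Of 6 class I PI 3-kinase subunits, 1 was higher and 1 lower, beside 11.4% and 17.0% of all compared genes. Their median log2 ratio was 0.29. PIK3CB, a catalytic subunit, averaged 13.6 TPM in si-NC against 36.9 TPM in si-FTO (log2 ratio 1.38). PIK3R1, the main regulatory subunit, which docks on phosphorylated substrates, had 8.61 and 1.15, a log2 ratio of -2.16. The regulatory subunit PIK3R2 had 53.2 and 63.5, a log2 ratio of 0.25, and PIK3R3 had 17.8 and 17.3, a log2 ratio of -0.04 that turned to 0.16 after median-ratio scaling. Of 14 AKT and mTOR genes, 1 was higher and 1 lower, beside the same shares of all genes, with a median of -0.03. RICTOR, a subunit of mTOR complex 2, had 4.30 and 15.2, a log2 ratio of 1.61. EIF4EBP1, a target of mTOR complex 1 that restrains translation, had 356 and 191, a log2 ratio of -0.90, and RHEB, which activates that complex, had 146 and 173, a log2 ratio of 0.24. Downstream of the substrates, most genes thus lay within 2-fold, with the subunits PIK3CB and PIK3R1 outside it, in opposite directions.

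Of 4 FOXO genes 0 were higher and 1 was lower, beside 11.4% and 17.0% of all compared genes. Their median log2 ratio was -0.27. FOXO3 averaged 26.9 TPM in si-NC against 8.54 TPM in si-FTO (log2 ratio -1.55), whereas FOXO4 had 14.0 and 16.3, a log2 ratio of 0.21, and FOXO1 had 11.6 and 6.47, a log2 ratio of -0.76. Of the 3 IGF2 mRNA binding proteins, which also read m6A, 0 were higher and 2 lower, beside the same shares. Their median log2 ratio was -1.58. IGF2BP1, an oncofetal protein, had 99.4 and 10.4, a log2 ratio of -3.13, and IGF2BP2 had 75.0 and 24.4, a log2 ratio of -1.58. IGF2BP3 had 30.7 and 24.6, a log2 ratio of -0.31. Each of the 3 was below the median of all genes.

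**Figure D4:**
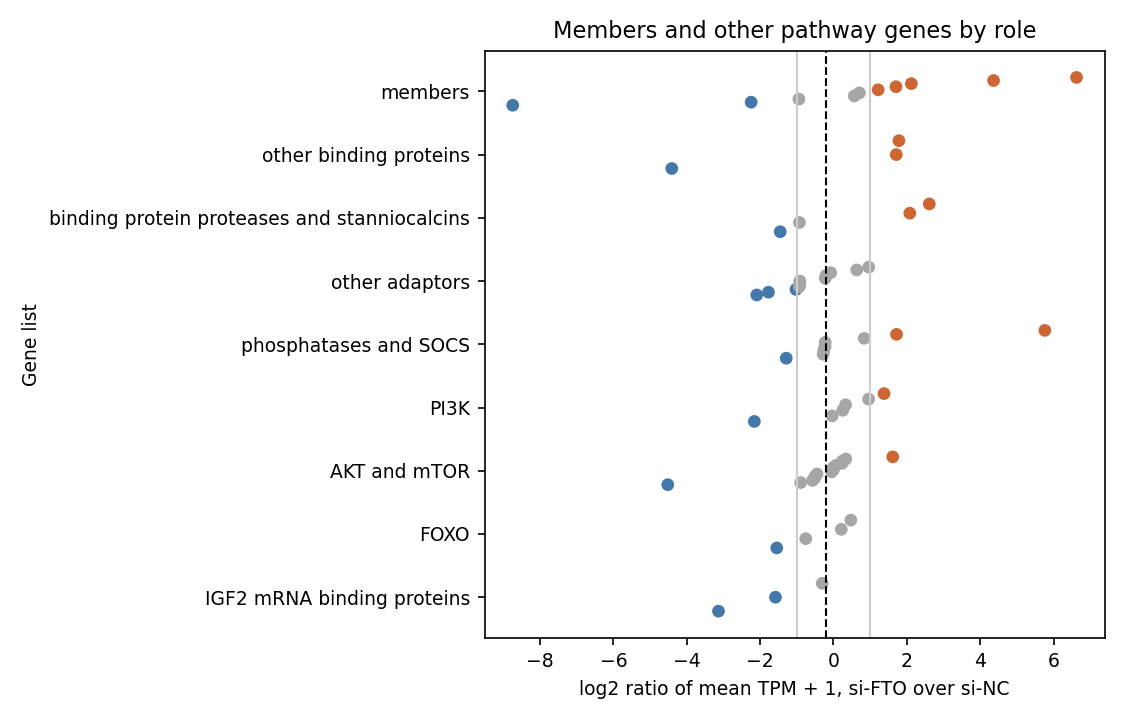
Log2 ratio of mean TPM + 1, si-FTO over si-NC, of each compared member and pathway gene by role; colour marks genes past 2-fold (grey lines at -1 and 1), the dashed line is the median of all compared genes, and vertical spread within a role only separates points. The members and the binding protein lists reach far to both sides, while SOCS3 at 5.76 stands apart from the rest of its list.

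The members lie on 9 chromosomes, with IRS1 and IGFBP2 both on chromosome 2. For each member the 20 nearest compared genes, 10 on each side, were read. Over all compared genes, 11.4% were past 2-fold higher in si-FTO and 17.0% past 2-fold lower. The neighbours of IRS2 on chromosome 13 had a median log2 ratio of 1.08, with 11 of 20 past 2-fold higher and 1 lower. Those of IGFBP6 on chromosome 12 had a median of 0.97, with 10 higher and 0 lower, among them KRT8 and KRT18, which lie 6 and 5 compared genes away. So IRS2 and IGFBP6 stood among genes that were also higher in si-FTO. The neighbours of the other 8 members had medians from -0.62 (IGF1R) to 0.35 (INSR). This range depends on the width: with 40 neighbours the medians were 0.02 for IGF1R, -0.78 for IRS4, 0.13 for INSR and 0.03 for IGFBP4. IGFBP3 and IGFBP4, with larger ratios, had neighbours at -0.10 and 0.21, so those genes stood out from their surroundings. Those of IRS4 had a median of -0.42, with 4 of 20 higher and 5 lower. The lower include RP6-24A23.6 and IRS4-AS1, which overlap IRS4 and may share its reads, so nothing is read from these counts.

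**Figure D5:**
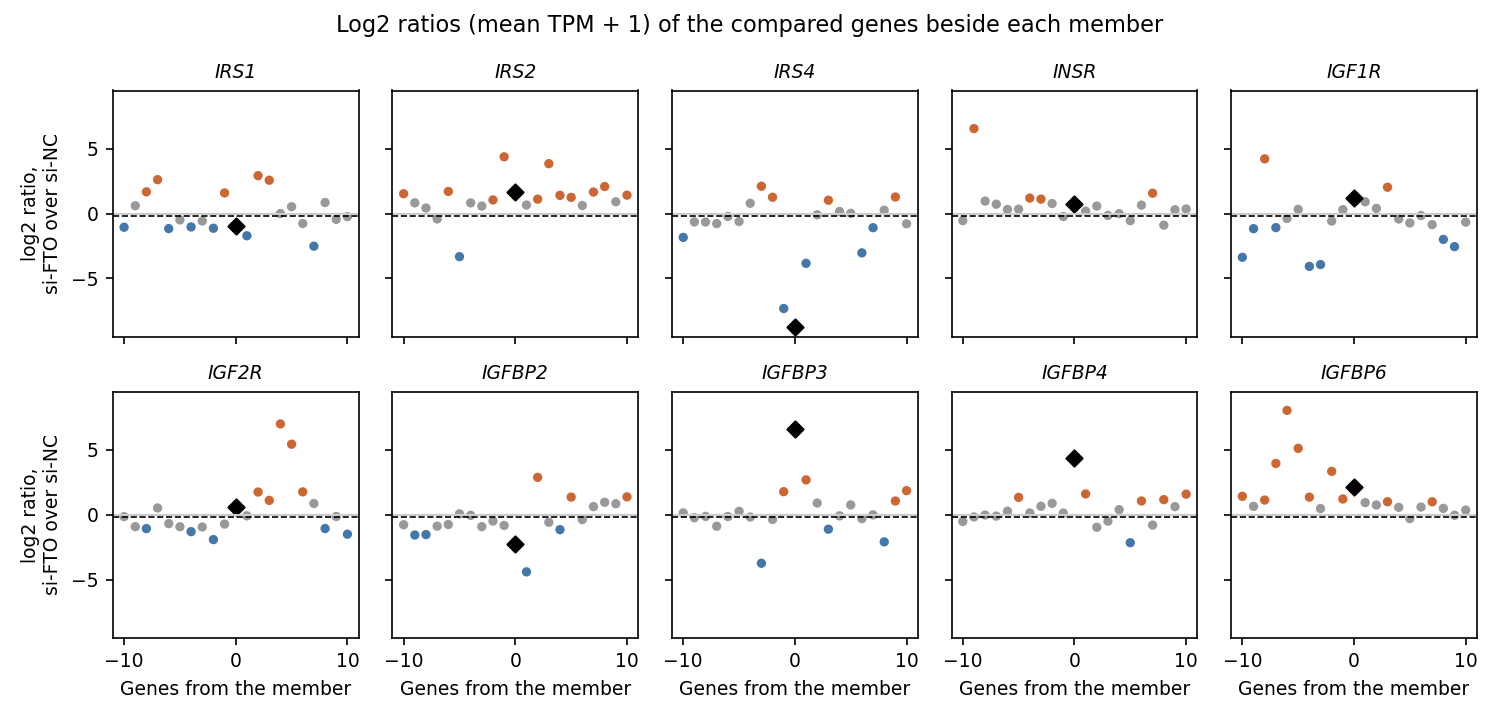
Log2 ratio of mean TPM + 1, si-FTO over si-NC, of the 10 compared genes on each side of each member (points, coloured where past 2-fold) and of the member itself (diamond), by order along the chromosome; the dashed line is the median of all compared genes. The points beside IRS2 and IGFBP6 lie mostly above 0, and IGFBP3, IGFBP4 and IRS4 stand away from most of their neighbours.

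Related genes sit beside related members, an arrangement left by old duplications that was noticed here after the values were seen. IGFBP5 lies next to IGFBP2 and both were lower in si-FTO, whereas IGFBP1 lies next to IGFBP3 and both were higher. A tensin gene, coding for a link between integrins and actin, lies 1 or 2 compared genes from each of the 4 binding proteins among the members. All 4 of these tensins were past 2-fold higher in si-FTO, beside 11.4% of all compared genes, and as a set picked out by eye they are a description only. TNS1, beside IGFBP2, averaged 3.45 TPM in si-NC against 31.9 TPM in si-FTO, and TNS3, beside IGFBP3, had 8.19 and 58.4. TNS2, beside IGFBP6, had 3.09 and 40.7, and TNS4, beside IGFBP4, was listed at 0 in si-NC and had 2.05 in si-FTO. The tensins thus went one way while IGFBP2 went the other.

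A pair of type IV collagen genes, coding for chains of the basement membrane, lies within 4 compared genes of each substrate. All 6 had a log2 ratio above 0, beside 8214 of the 20493 compared genes, and 4 were past 2-fold higher, beside 11.4%. Beside IRS4, COL4A5 averaged 20.9 TPM in si-NC against 93.7 TPM in si-FTO, and COL4A6 had 12.2 and 21.8. Beside IRS1, COL4A4 had 0.341 and 9.19, and COL4A3 had 0.130 and 5.73. Beside IRS2, COL4A1 had 11.9 and 19.4, and COL4A2 had 29.6 and 65.1. The collagens beside IRS4 thus had ratios above 0 while IRS4 itself was past 2-fold lower.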

How the data were processed

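Total RNA of AGS cells was sequenced from 3 si-NC and 3 si-FTO libraries, grouped by their titles. For 58174 genes the deposited values are TPM, averaged by the authors over each group's libraries. The study's methods name Bowtie, RSEM and hg19, whereas the submitters' processing notes name HISAT2 and hg19; versions and annotation are not given in the sources used here. The deposited table also holds the authors' log2 fold changes, p-values and q-values, which were not used, and a second table of genes past the authors' thresholds was not used either. TPM keeps no depth, so the precision of each mean is unknown and no test was made.

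Values of 0.0001 were read as 0. Genes that reached 0.5 TPM in 1 group or both were compared, and the log2 ratio used a pseudocount of 1. Symbols came from a reference table, with 55726 identifiers matched, and from RefSeq; PECAM1 was not matched. Coordinates, coding sequences and GGACT counts came from GRCh37 with GENCODE v44lift37, and promoters from the RefSeq table (GRCh38.p14), which held 13 promoters for the 10 members. Proteins were aligned with BLOSUM62, with free end gaps. The genes named were every member, every pathway gene past 2-fold and up to 2 per list that were not, the most abundant (of the ligands all 3), the 3 genes nearest to IRS4, genes overlapping a member, and FTO; some genes that this rule takes are left out. The pathway and marker lists, like the members, were chosen with earlier results of these data known. The alternatives were a pseudocount of 0.1, 2 other scalings, other filters, a log2 ratio of 2, 0.0001 kept, and 40 neighbours. Python 3.11.15, numpy 2.4.6, pandas 2.3.3, matplotlib 3.10.9 and Biopython 1.88 were used, and the code was tested on simulated data.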

Additional observations from a re-analysis of the deposited data

How the results depend on the processing

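No paired analysis was possible because the table holds 1 mean per group and no values of single libraries; for the same reason leaving out each replicate and the replicate block were not run. Of 40 values of single members under an alternative, 38 kept their direction and their side of 2-fold, and 2 came to lie past 2-fold, both of IRS1. With 2 as the least log2 ratio, 3 members were higher in place of 5, 976 of all genes were higher and 1241 lower, and 3 pathway genes were higher and 5 lower; a stricter threshold counts fewer genes by construction. With a minimum of 5 TPM, 2254 of all genes were lower in place of 3492, since fewer genes were compared. The other counts lay within 1.5 times the values reported. After median-ratio scaling 49.1% of the genes past 2-fold were higher, in place of 40.1%. With 40 neighbours the median moved from -0.62 to 0.016 beside IGF1R, from -0.42 to -0.78 beside IRS4, from 0.35 to 0.13 beside INSR and from 0.21 to 0.03 beside IGFBP4, and the cause was not tested. The log2 ratio of IRS4 ranged from -22.03 to -8.64 over the settings, because its si-FTO value is a stand-in for 0. Without depth or single libraries no error could be computed from the means, and the authors' p-values and q-values were not used. No difference here was therefore set against an error, and values under the filter of 0.5 are the least certain.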

Other observations

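A list of 14 genes of receptor processing, trafficking and turnover was written after the members' values were seen, and is a description only. All 14 were compared, with 1 past 2-fold higher in si-FTO, beside 11.4% of all compared genes, 2 lower, beside 17.0%, and a median log2 ratio of -0.38 against -0.20 for all. The counts are near those shares, so nothing is read from them about the list. FURIN, the protease that cuts the INSR and IGF1R precursors into their subunits, averaged 45.2 TPM in si-NC against 187 TPM in si-FTO (log2 ratio 2.02). PCSK5, a protease of the same family, had 7.32 and 0.0585, a log2 ratio of -2.97, and PCSK6 had 57.3 and 29.2, a log2 ratio of -0.95. ENPP1, a membrane protein that inhibits the insulin receptor, had 21.2 and 0.222, a log2 ratio of -4.18. M6PR, the other mannose 6-phosphate receptor, had 51.4 and 73.4, a log2 ratio of 0.51, close to the 0.57 of IGF2R, while the adaptor GGA1, which sorts both, had 64.9 and 38.6, a log2 ratio of -0.74.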
